A study of Mus musculus with 6 samples.

Results

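Probe sets for the rearranging antigen receptor loci, the immunoglobulin genes and the T cell receptor (TCR) genes, were described in splenic T cells of 6 mice after bone marrow transplantation. Members were all probe sets for which the array platform's gene table lists a symbol of an immunoglobulin heavy, kappa or lambda segment or of a TCR alpha, beta, gamma or delta segment, whatever their values. This rule found 83 of the 35556 probe sets of the table, 31 of them immunoglobulin and 52 TCR. A probe set is a group of short probes whose signals are summarised into a single value, given here as a log2 level, so that a difference of 1 is a factor of 2. All recipients were lethally irradiated B6D2F1/J mice, an F1 hybrid with a B6 parental genome, that received bone marrow of B6 mice depleted of T cells. Some recipients in the protocol were also given B6 spleen cells, but which mice these were, and whether sorted T cells stemmed from donor or host, is not stated. The treated group of 3 mice had intraperitoneal rapamycin, which inhibits the kinase mTOR, in doses of 1.5 mg/kg on alternate days up to day 10. The control group of 3 mice was injected on the same schedule with phosphate-buffered saline (PBS). On day 10, CD3-positive cells were sorted from each spleen and hybridised to 1 array per mouse. The ages of the mice are not stated.

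Antigen receptor chains are encoded by separate variable (V), diversity (D), joining (J) and constant segments, which lymphocytes cut and join into a single gene. B cells rearrange the immunoglobulin heavy chain and then kappa or lambda light chain loci, while T cells rearrange the TCR alpha and beta loci, or gamma and delta loci in the smaller gamma-delta lineage. Each clone carries its own V segments, so the transcript level of a segment depends on which clones a sample holds as well as on how many cells transcribe the locus. A bulk RNA measurement cannot tell fewer cells of a type from less RNA per cell.

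The annotation sets how finely single segments can be read. Only 25 members listed a single symbol and 58 listed several, up to 8 symbols in 1 probe set, so most members cannot be assigned to 1 segment. The members named 58 symbols, of which 57 were found in the RefSeq gene table of assembly GRCm38.p6 as 49 V segments, 2 V segment pseudogenes, 1 J segment and 5 constant regions. In the TCR alpha locus, 22 of 45 probe sets formed 11 pairs with identical values in all 6 mice, which leaves 72 different profiles among the 83 members. The symbols Trav3n-3 and Trav3-3 recur in 29 probe sets with 21 different profiles, so these names do not single out a segment, and probe sets are therefore cited with their array number. The rule found 0 probe sets for the TCR constant regions, so the measured TCR members were V segments throughout.

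The 6 arrays had medians of 6.03 to 6.17 and no array repeated another. Cd3e, a chain of the CD3 complex used for the sort, measured 12.78 to 12.92 over the 6 mice. Neutrophil genes also lay above the array medians, such as Lcn2 at 11.67 to 12.84 and Ngp at 10.39 to 12.32, as did the macrophage gene Cd68 at 10.20 to 10.92. Of the 8 measured B cell markers, Cd22 at 7.67 to 8.03 and Cd79b at 6.80 to 7.56 lay above the array medians. The others lay below them, such as Ms4a1 at 3.68 to 4.12 and Cd79a at 4.96 to 5.50, and whether these were above background was not tested. Lcn2, Ngp, Cd68 and Cd22 were named after their values were seen. Over all probe sets, limma's moderated test called 0 of 35556 at an adjusted p under 0.05, and 1385 had an unadjusted p under 0.05.

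Antigen receptor probe sets differed widely from mouse to mouse, most of all those of immunoglobulin. The SD between mice within groups had a median of 0.47 log2 over the members, 0.73 over the immunoglobulin and 0.31 over the TCR probe sets, against 0.13 over all probe sets. Of the 83 members 80 lay above the median SD of the table. The range over the 6 mice reached 1 log2 in 46 members, or 55.4%, against 8.37% of all probe sets, and it reached 2 log2 in 17, or 20.5%, against 0.683%. Of those 17, 13 were immunoglobulin and 4 TCR alpha probe sets, among the latter 10414793 and 10414903 with identical values. These counts are over all 83 members, with identical profiles not merged.

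**Figure D1:**
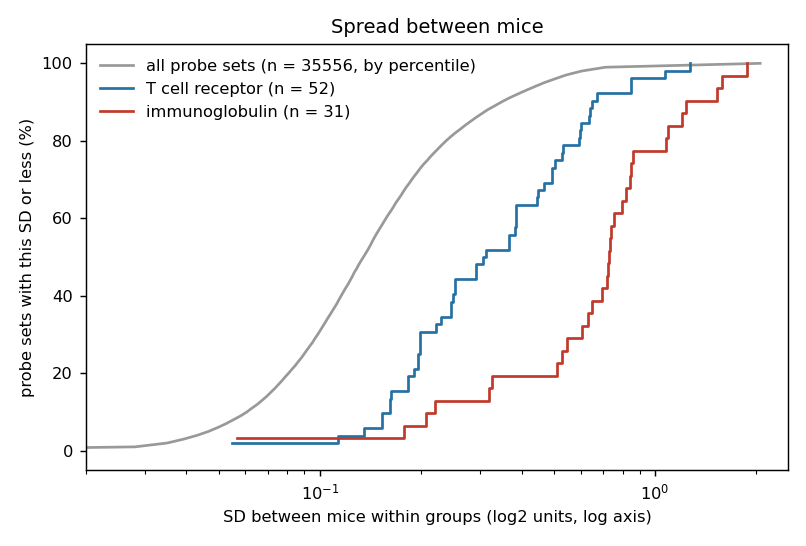
Cumulative share of probe sets (y axis, percent) by the SD between mice within groups (x axis, log2 units on a log axis) for all 35556 probe sets in grey, 52 TCR probe sets in blue and 31 immunoglobulin probe sets in red. The median SD is 0.13, 0.31 and 0.73 in this order.

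The comparison of rapamycin with PBS asked whether the drug shifts antigen receptor transcripts of splenic T cells. By the adjusted p 0 of 83 members were called, against 0% of all probe sets, and the smallest adjusted p of a member was 1.0. At an unadjusted p under 0.05 in limma's test there were 8 members, all lower with rapamycin, which is 9.64% of the members against a background of 3.9% of all probe sets in either direction and 2.55% in that direction. The background in the other direction was 1.34%, and there 0 members passed. With identical profiles counted once the members below that p were 7 of 72. Groups did not overlap in 7 members, or 8.43% against 8.53% of all probe sets. They were 6 members below PBS, against 5.44% of all probe sets, and 1 above, against 3.09%. The median difference (rapamycin minus PBS) was -0.30 over the 31 immunoglobulin members and -0.05 over the 52 TCR members, against -0.01 over all probe sets, and 61 of 83 members were negative against 54.7% of all probe sets.

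This direction depended on which mice were in the fit, above all on rapamycin replicate 1. That mouse was the lowest of the 6 in 39 members, or 47.0%, against 20.5% of all probe sets. It was the highest in 0 members, against 21.9% of all probe sets. Probe sets with identical values, such as 10414769 and 10414876, are each counted in the 39. Without rapamycin replicate 1, 39 of 83 members were negative, against 56.8% of all probe sets, and the median difference was 0.04 over the members. In that fit 2 members were lower and 2 higher at an unadjusted p under 0.05, or 4.82% against 5.93% of all probe sets. The lower ones were 2.41% of the members against 3.72% of all probe sets. The array of this mouse also received the lowest of the 6 array weights that limma estimated from the whole table, 0.469 against 0.852 to 1.52. In limma's fit with these weights, 24 of 31 immunoglobulin members were still negative (median -0.20), with 4 lower at an unadjusted p under 0.05. Of the TCR members 28 of 52 were negative (median -0.02), with 2 lower at that p. Those lower at that p were 12.9% of the immunoglobulin and 3.85% of the TCR members, against 4.04% of all probe sets with these weights. Negative differences made up 55.4% of all probe sets there. Leaving out rapamycin replicate 3, a mouse with high immunoglobulin values, gave a larger shift, with 67 of 83 members negative against 51.9% of all probe sets. In that fit 15 members were lower at an unadjusted p under 0.05, of which 11 were immunoglobulin. This was 18.1% of the members against 2.27% of all probe sets. Without PBS replicate 1, 17 of 31 immunoglobulin members (median -0.08) and 39 of 52 TCR members (median -0.13) were negative, against 55.85% of all probe sets. Without PBS replicate 3, 28 of 31 immunoglobulin members (median -0.51) and 23 of 52 TCR members (median 0.01) were negative, against 58.3% of all probe sets. The pattern of single mice across the loci is seen in the colour map of deviations.

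**Figure D2:**
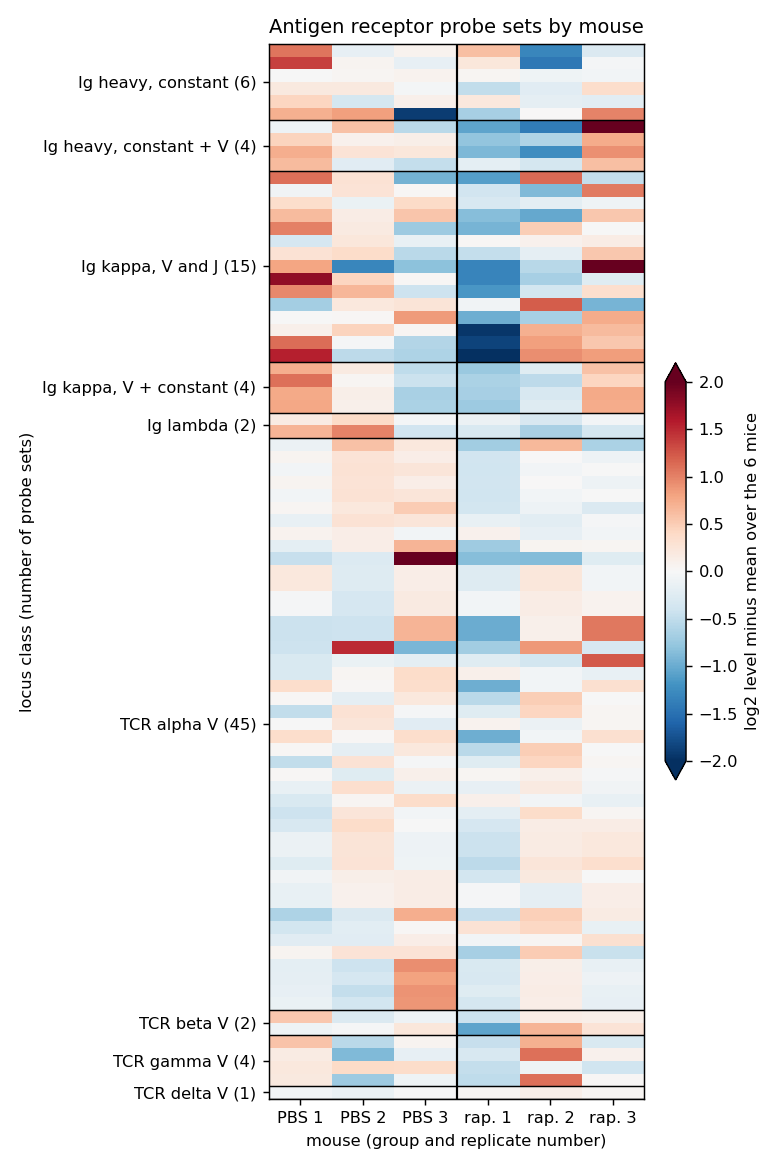
Deviation of each of the 83 probe sets (rows, grouped by locus class with the number of probe sets) from its mean over the 6 mice (columns, rap. for rapamycin), on a log2 colour scale cut at -2 and 2. Immunoglobulin rows show stronger colours than TCR rows, and rapamycin replicate 1 is the lowest mouse in 39 rows.

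Heavy chain constant regions decide the antibody class, and 6 probe sets listed only such a region. Igha, the constant region of IgA, was covered by 2 of them. In probe set 10403034 it measured 9.61, 8.37 and 8.61 in PBS mice 1, 2 and 3 and 9.13, 7.23 and 8.25 in rapamycin mice 1, 2 and 3, a difference of -0.66 (SE 0.53, 95% interval -1.93 to 0.62). In probe set 10403063 the values were 9.32, 8.01 and 7.80 with PBS and 8.18, 6.52 and 7.93 with rapamycin, a difference of -0.83 (SE 0.56). PBS replicate 1 was the highest and rapamycin replicate 2 the lowest mouse in both, the groups overlapped, and the range reached 2.38 and 2.80 log2.

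Ighm, the constant region of IgM, had 3 probe sets that did not vary alike. Probe set 10402864 measured 7.70, 7.70 and 7.48 with PBS and 7.02, 7.29 and 7.87 with rapamycin (difference -0.24, SE 0.21). Probe set 10402991 differed by -0.12 (SE 0.22), with a range of 0.79 over the 6 mice. In probe set 10403069 the values were 6.68, 6.79 and 4.07 with PBS and 5.31, 5.98 and 6.96 with rapamycin, so PBS replicate 3 lay 1.23 log2 below the next mouse. Ighg3, the constant region of an IgG class, varied least of the heavy chain probe sets, with 4.81, 4.85 and 4.89 in PBS mice and 4.86, 4.73 and 4.76 in rapamycin mice. Whether this weak signal was above background was not tested.

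The remaining 4 heavy chain probe sets listed a constant region together with V segments, so their values cannot be assigned to 1 kind of segment. Probe set 10403021, listed for Igha and the pseudogene segment Ighv1-33, measured 7.20, 7.88 and 6.76 with PBS and 6.25, 5.90 and 9.83 with rapamycin. Rapamycin replicate 3 alone stood 1.94 log2 above the next mouse, a factor of 3.84. Probe set 10403018, listed for Ighg3, Igha, Ighv1-33 and Ighv1-26, measured 9.87, 9.42 and 9.38 with PBS and 8.24, 7.90 and 10.06 with rapamycin, a difference of -0.82 (SE 0.55), and 10403015 with the same symbols had -0.44 (SE 0.39). In both, rapamycin replicates 1 and 2 lay below and rapamycin replicate 3 above all PBS mice. Probe set 10403009, listed for Ighv3-6 and Igha, differed by 0.04 (SE 0.36). The median difference of these 4 was -0.20, and -1.06 without rapamycin replicate 3.

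The kappa light chain locus, which most mouse B cells use for their light chain, gave 19 probe sets, 15 without a constant region and 4 that also list the constant region Igkc. Of the 15, 2 also list the kinase gene Map3k20. Without a constant region, 12 of 15 were negative and the median difference was -0.31. Rapamycin replicate 1 was the lowest mouse in 10 of these 15, and without it their median was 0.14. Without rapamycin replicate 3 it was -0.69, and with array weights it was -0.05. Igkv5-43 measured 7.47, 6.12 and 5.72 with PBS and 4.38, 5.04 and 5.46 with rapamycin. The groups did not overlap, with a difference of -1.48 (SE 0.49, 95% interval -2.65 to -0.31, limma's unadjusted p = 0.0209, adjusted p = 1.0). Within the PBS group, replicate 1 was 1.35 log2 above the next mouse, and the difference without it was -0.96. The probe set for Igkv10-96 and the joining segment Igkj1 measured 8.54, 8.06 and 8.58 with PBS and 7.88, 8.0 and 8.11 with rapamycin, and PBS replicate 2 lay within the rapamycin values. Its difference was -0.40 (SE 0.16, limma's unadjusted p = 0.0394), not past the adjusted threshold. Probe set 10545173, with Igkv10-96 as its only symbol and named after its values were seen, differed by -0.16 (SE 0.47). There the groups overlapped and rapamycin replicate 3 was the highest mouse.

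Other kappa segments were set apart by single mice. Igkv4-91 had the widest range of all members, 4.54 log2 or a factor of 23.2. It measured 6.19, 4.09 and 4.57 with PBS and 4.07, 4.84 and 8.60 with rapamycin, so rapamycin replicate 3 lay 2.41 log2 above the next mouse (difference 0.89, SE 1.21). Igkv4-55 stayed between 3.85 and 4.42 in all mice, with a difference of 0.17 (SE 0.15). The 3 probe sets that list Igkv9-120, chosen after their values were seen, were lowest in rapamycin replicate 1, while the other rapamycin mice lay above PBS replicates 2 and 3. The one with the widest range, 10538921, which also lists Igkv1-117, Igk-V21 and Map3k20, measured 10.33, 8.26 and 8.17 with PBS and 6.58, 9.71 and 9.62 with rapamycin. In this set, rapamycin replicate 1 lay 1.59 log2 below the next mouse. Being lowest in that mouse was common in the locus, in 14 of the 19 kappa probe sets.

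The 4 probe sets that list Igkc with Igkv4 and other V segments had PBS replicate 1 as the highest and rapamycin replicate 1 as the lowest mouse in each. Their median difference was -0.21, and it was 0.11 without PBS replicate 1 and 0.09 without rapamycin replicate 1. Probe set 10545184 measured 9.60, 9.04 and 8.37 with PBS and 8.13, 8.62 and 9.46 with rapamycin, and 10545187 measured 8.06, 7.0 and 6.53 with PBS and 6.32, 6.43 and 7.39 with rapamycin. Rapamycin replicate 3 was close to PBS replicate 1 in the first of them and the groups overlapped in both. The differences were -0.27 (SE 0.42) and -0.48 (SE 0.45). Since these probe sets share symbols, they are not independent readings of the locus.

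The lambda light chain, which few mouse B cells use, was measured by 2 probe sets with the same 3 symbols, Iglv1, Iglv2 and the constant region Iglc1. Probe set 10438405 measured 7.04, 7.25 and 6.83 with PBS and 6.75, 6.54 and 6.81 with rapamycin, with no overlap between the groups and a difference of -0.34 (SE 0.13, unadjusted p = 0.0383 in limma's test, adjusted p = 1.0). Probe set 10438415 measured 6.05, 6.36 and 4.99 with PBS and 5.07, 4.73 and 5.02 with rapamycin, a difference of -0.86 (SE 0.34, unadjusted p = 0.0436), and PBS replicate 3 lay within the rapamycin values. PBS replicate 2 was the highest and rapamycin replicate 2 the lowest mouse in both, and without PBS replicate 2 the differences were -0.23 and -0.58, with unadjusted p of 0.111 and 0.126.

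**Figure D3:**
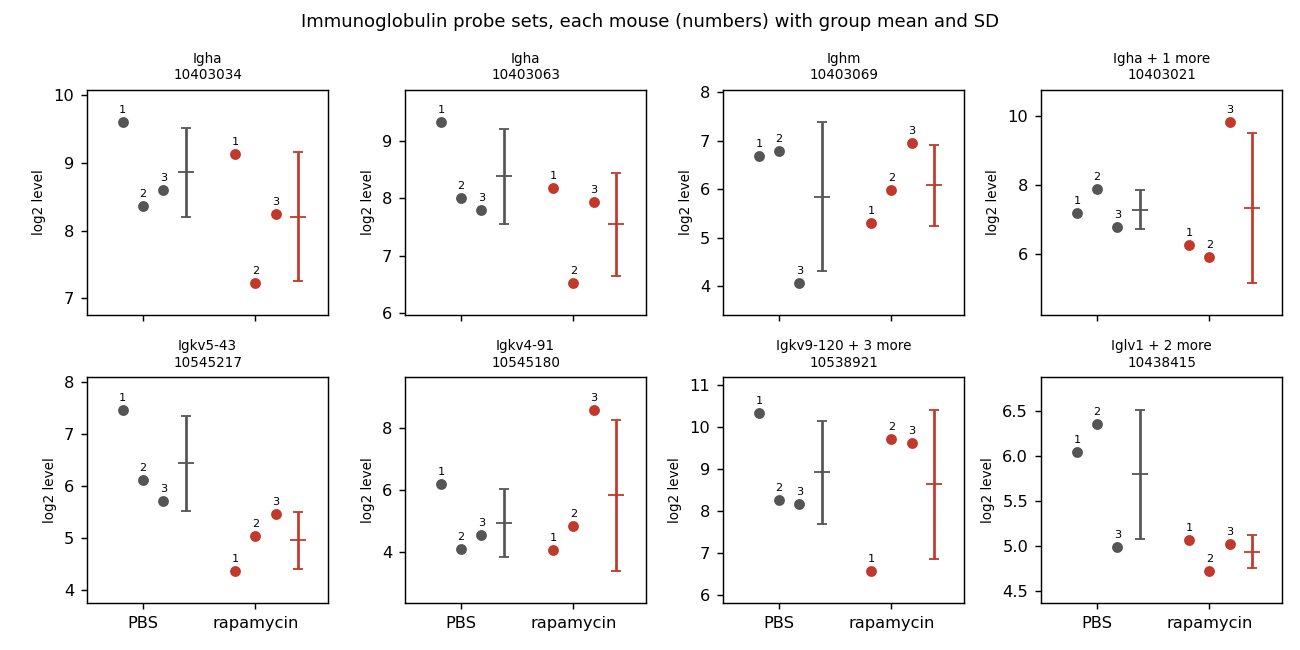
Log2 level (y axis, a different scale in each panel) of 8 immunoglobulin probe sets in the 3 PBS mice (grey) and 3 rapamycin mice (red), with replicate numbers above the points and the group mean with its SD beside them. Panels show the first listed symbol and the array number of the probe set; Igkv5-43 is the only panel without overlap of the groups, and rapamycin replicate 3 stands alone in Igkv4-91.

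TCR alpha V segments are joined to a J segment to encode the alpha chain of most T cells, and they made up 45 members. Of these 32 were negative and 13 positive, with a median difference of -0.05 and differences of -1.30 to 0.41. The smallest p of the locus belonged to probe sets of the Trav12 family. Probe set 10414747, listed for Trav12n-1 and Trav12-1, measured 6.72, 6.90 and 7.18 with PBS and 6.31, 6.58 and 6.39 with rapamycin, without overlap and with a difference of -0.51 (SE 0.14, 95% interval -0.84 to -0.18, limma's unadjusted p = 0.00915, adjusted p = 1.0). Probe set 10414769, listed for these and Trav12-2 and Trav12n-2, measured 10.63, 10.85 and 10.70 with PBS and 10.19, 10.58 and 10.47 with rapamycin, also without overlap (difference -0.32, SE 0.12, limma's unadjusted p = 0.039). Its values are identical to those of probe set 10414876, so both count in the 8 members named above. Without rapamycin replicate 1 its difference was -0.20. That of 10414747 lay between -0.61 and -0.38 when any 1 mouse was left out. All 7 probe sets that list a Trav12 segment had negative differences, the other 4 at an unadjusted p of 0.05 or more. Among those 4, 10414772 and 10414879 were also identical to each other. The family shares symbols, so the 7 are not independent readings.

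In the other direction, the smallest p belonged to probe sets of the Trav7 family. Probe set 10414929, listed for Trav7-4 and Trav7d-4 among others, measured 8.87, 9.04 and 9.26 with PBS and 9.54, 9.66 and 9.10 with rapamycin (difference 0.37, SE 0.17). Trav7d-4 alone, in probe set 10414734, differed by 0.21 (SE 0.14). The groups overlapped in both. Trav7n-5, a member of the same family that was named after its values were seen, had a negative difference of -0.40 (SE 0.29). The other 5 of the 6 probe sets that list a Trav7 segment were positive, among them 10414793 and 10414903 with identical values.

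Of the 4 TCR alpha members with a range of 2 log2 or more, 1 was set apart by a single mouse. Trav14-1 in probe set 10414953 measured 5.36, 5.54 and 8.50 with PBS and 4.97, 4.94 and 5.58 with rapamycin, so PBS replicate 3 lay 2.92 log2, a factor of 7.55, above the next mouse. The other probe set with Trav14-1 as its only symbol, 10414950, was also highest in PBS replicate 3, with a range of 1.40 against 3.55. In the identical probe sets 10414754 and 10414860, which list Trav14-1 among other symbols, rapamycin replicate 2 was the highest mouse and the range was 0.48. Trav19 measured 7.67, 9.58 and 7.17 with PBS and 7.40, 8.97 and 7.77 with rapamycin, high in replicate 2 of both groups. The identical probe sets 10414793 and 10414903, listed for Trav16d-dv11 and Trav7d-6, measured 7.18, 7.20 and 8.28 with PBS and 6.62, 7.71 and 8.66 with rapamycin, high in PBS replicate 3 and rapamycin replicate 3. With a smaller range of 1.60, probe set 10414711, listed for Trav3n-3 and Trav3-3, measured 6.63, 6.81 and 6.74 with PBS and 6.68, 6.57 and 8.17 with rapamycin, with rapamycin replicate 3 alone above the rest by 1.36 log2. The 4 probe sets that list Trav9d-3 and Trav9d-4 were all highest in PBS replicate 3, for example 10414955 with 10.54, 10.22 and 11.60 with PBS and 10.46, 10.85 and 10.55 with rapamycin. These examples other than 10414953 were chosen after their values were seen.

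TCR beta V segments form the variable part of the beta chain and had 2 probe sets. Trbv1 measured 10.61, 9.78 and 9.97 with PBS and 9.63, 10.22 and 10.19 with rapamycin (difference -0.11, SE 0.25). The probe set listed for Trbv13-2 and Trbv1 measured 10.10, 10.15 and 10.40 with PBS and 9.13, 10.86 and 10.44 with rapamycin, so the rapamycin mice held both the lowest and the highest value. Its difference was -0.07 (SE 0.42), and without rapamycin replicate 1 it was 0.44 (limma's unadjusted p = 0.0401). Trbv1 also turned positive without rapamycin replicate 1, at 0.08, and without PBS replicate 1, at 0.14. With all mice the groups overlapped in both probe sets.

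TCR gamma V segments mark the gamma-delta lineage, although alpha-beta T cells can also carry rearranged gamma genes. Probe set 10407940, listed for Trgv2, Trgv6 and Trgv4, measured 10.48, 9.44 and 10.15 with PBS and 9.99, 11.42 and 10.41 with rapamycin. Probe set 10403821, with the same symbols, measured 10.13, 9.20 and 9.84 with PBS and 9.43, 11.03 and 9.95 with rapamycin. In both, rapamycin replicate 2 was the highest and PBS replicate 2 the lowest mouse, and the differences were 0.58 (SE 0.42) and 0.41 (SE 0.44) with overlapping groups. Trgv1 differed by -0.04 (SE 0.39).

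The probe set with the smallest p of all members, 10403816, lists only Trgv6 and Trgv4 and went the other way. It measured 4.30, 4.48 and 4.47 with PBS and 3.62, 4.02 and 3.70 with rapamycin, without overlap, a difference of -0.64 (SE 0.12, 95% interval -0.93 to -0.34, limma's unadjusted p = 0.00158, adjusted p = 1.0). Its difference kept its sign when any 1 mouse was left out, from -0.76 to -0.56. The 2 probe sets above hold the same symbols beside Trgv2 and had positive differences. Without rapamycin replicate 2 these were 0.18 in 10407940 and -0.04 in 10403821, so they rested largely on that mouse. Trdv2-2, the only member symbol that begins with Trdv, measured 4.50, 4.42 and 4.55 with PBS and 4.58, 4.67 and 4.59 with rapamycin. Its difference was 0.13 (SE 0.07), with all rapamycin mice above all PBS mice. The values of 10403816 and Trdv2-2 lay below the array medians, and whether they were above background was not tested.

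**Figure D4:**
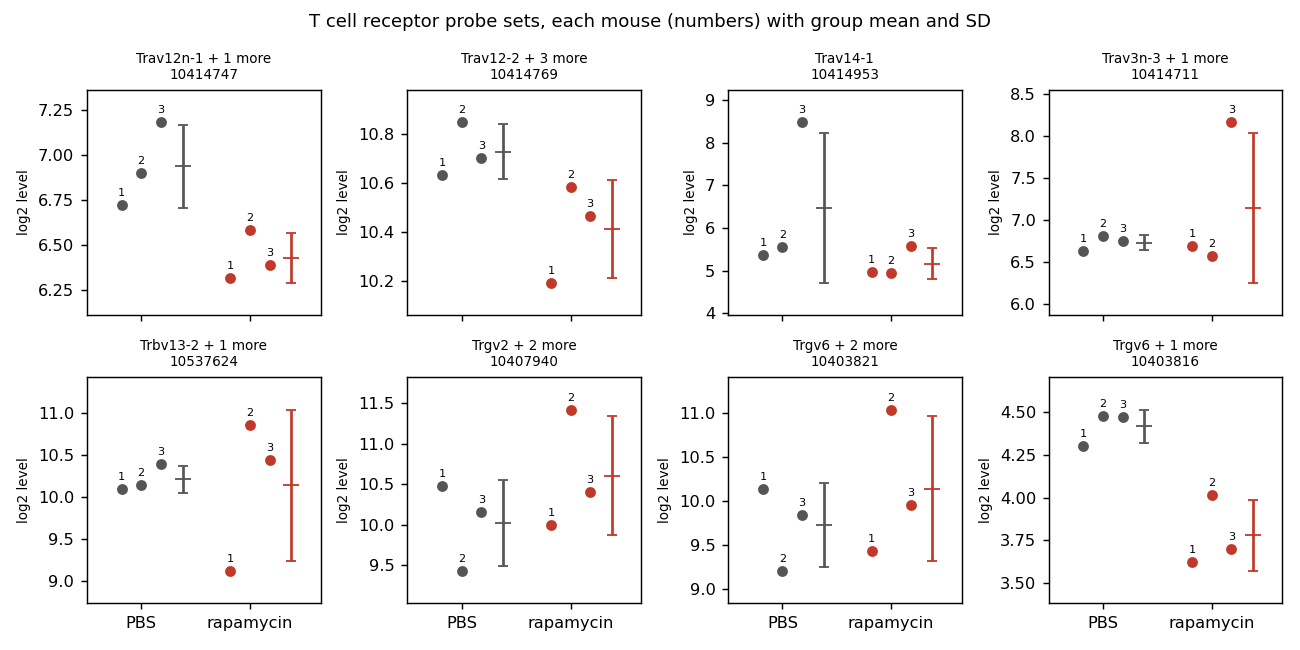
Log2 level (y axis, a different scale in each panel) of 8 TCR probe sets in the 3 PBS mice (grey) and 3 rapamycin mice (red), with replicate numbers above the points and the group mean with its SD beside them. Panels show the first listed symbol and the array number; the groups do not overlap in 10414747, 10414769 and 10403816, while Trav14-1 is high in PBS replicate 3 alone.

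The members were also searched for a mouse that stood 1 log2 or more apart from the next. The highest mouse was set apart in this way in 6 members, or 7.23%, against 0.267% of all probe sets, and the lowest in 6, or 7.23%, against 0.278%. The 6 high cases lay in PBS replicate 1 for 1 Igha probe set and Igkv5-43, in PBS replicate 3 for Trav14-1 and in rapamycin replicate 3 for Igkv4-91, for Igha with Ighv1-33 and for a Trav3n-3 probe set. The 6 low cases were all immunoglobulin, in rapamycin replicate 1 for the 3 Igkv9-120 probe sets, in rapamycin replicate 2 for both Igha probe sets and in PBS replicate 3 for 1 Ighm probe set. Members of a family share symbols, so these cases are not independent.

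The per-mouse medians of the members were set beside marker genes of cells that a spleen sort could hold. Over the 31 immunoglobulin members, the median deviation from the mean of the 6 mice was 0.68, 0.17 and -0.16 in PBS mice 1, 2 and 3 and -0.66, -0.33 and 0.53 in rapamycin mice 1, 2 and 3. High and low mice occurred in each group, and the ranges overlapped. The 8 measured B cell markers deviated by 0.09, 0.04 and -0.09 with PBS and 0.02, 0.10 and -0.10 with rapamycin, and their mean level lay between 5.45 and 5.65 with PBS and between 5.41 and 5.59 with rapamycin. The 7 plasma cell markers had deviations of 0.08, 0.03 and -0.13 with PBS and -0.15, 0.07 and 0.03 with rapamycin, and mean levels of 6.83 to 6.91 with PBS and 6.78 to 6.93 with rapamycin. Jchain, the joining chain of secreted IgA and IgM, measured 5.89, 5.59 and 5.52 with PBS and 5.23, 5.41 and 5.81 with rapamycin, so its highest values were in PBS replicate 1 and rapamycin replicate 3 and its lowest in rapamycin replicate 1, the same mice as for the immunoglobulin median. Other genes of the list had other orders, such as Mzb1, highest in rapamycin replicate 1 with 6.14, 6.13 and 5.81 with PBS and 6.18, 5.95 and 5.88 with rapamycin, and Sdc1, highest in PBS replicate 2. The 6 macrophage markers had deviations of 0.32, -0.08 and 0.12 with PBS and -0.47, -0.20 and 0.22 with rapamycin, also highest in PBS replicate 1 and lowest in rapamycin replicate 1. Their mean levels were 8.35 to 8.95 with PBS and 7.97 to 8.33 with rapamycin, apart by a narrow margin, while the median deviations overlapped. By gene, the differences were -1.34 for Spic (SE 0.22), -0.90 for Vcam1 (SE 0.62) and -0.47 for Hmox1 (SE 0.22). The groups did not overlap in Spic and overlapped in the other macrophage markers, and 0 of these markers passed the adjusted threshold. The differences were -0.01 for Csf1r, -0.01 for Cd68 and 0.10 for Adgre1. The part of B lineage cells and macrophages in the immunoglobulin values was not tested.

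The 52 TCR members had median deviations of -0.12, 0.03 and 0.15 in the PBS mice and -0.36, 0.14 and -0.01 in the rapamycin mice. For the 7 measured T cell markers the median deviations were -0.13, -0.01 and 0.13 with PBS and -0.09, 0.08 and -0.04 with rapamycin, with mean levels of 10.95 to 11.18 with PBS and 10.94 to 11.15 with rapamycin. PBS replicate 3 and rapamycin replicate 2 were above 0 and PBS replicate 1 and rapamycin replicate 1 below 0 in both. The 7 neutrophil markers deviated by 0.34, 0.17 and -1.09 with PBS and 0.78, -0.33 and 0.27 with rapamycin, highest in rapamycin replicate 1 and lowest in PBS replicate 3, with mean levels of 9.04 to 10.4 with PBS and 9.81 to 10.98 with rapamycin. Natural killer markers had mean levels of 6.19 to 6.62 with PBS and 6.27 to 6.39 with rapamycin. The part of these cells in the TCR values was not tested.

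**Figure D5:**
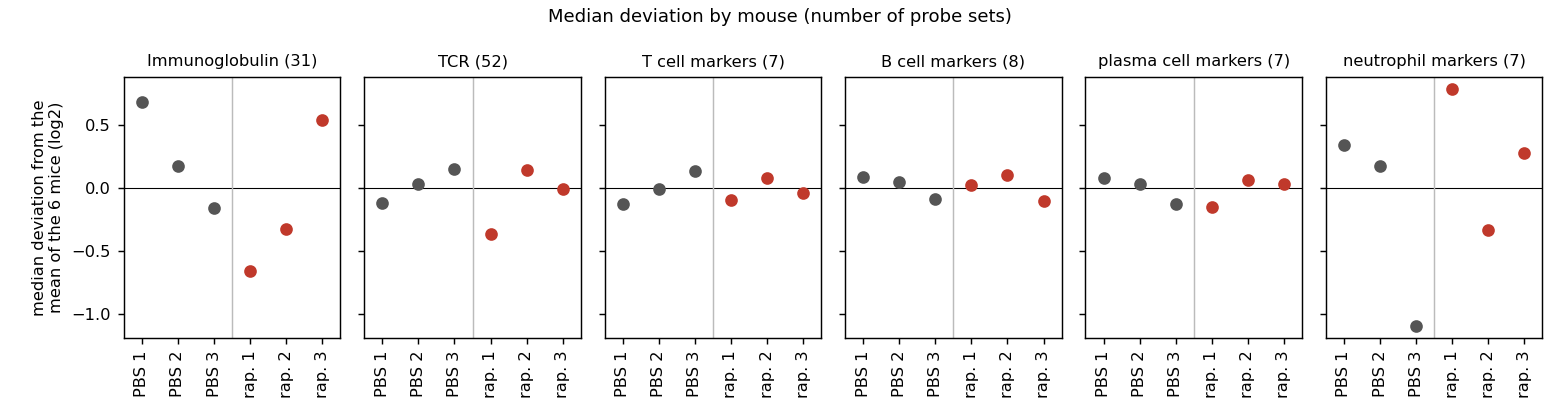
Median deviation from the mean of the 6 mice (y axis, log2) for each mouse (x axis, rap. for rapamycin) over the immunoglobulin and TCR members and over 4 marker lists, with the number of probe sets in brackets. Immunoglobulin is highest in PBS replicate 1 and rapamycin replicate 3, and TCR is lowest in rapamycin replicate 1, where neutrophil markers are highest.

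Genes that work with the receptors were compared in the same fit, 1 probe set a gene, and 0 of the 89 measured passed the adjusted threshold. Partners of the B cell receptor had 8 negative and 6 positive members of 14 (median -0.03), with 1 lower and 0 higher at an unadjusted p under 0.05. Of all probe sets 2.55% were lower and 1.34% higher at that p. The lower partner gene was Cd79b, the signalling partner of Cd79a, which measured 7.56, 7.16 and 7.44 with PBS and 6.83, 6.89 and 6.80 with rapamycin, a difference of -0.54 (SE 0.12) without overlap. Pigr, which carries IgA across epithelia, had -0.12 (SE 0.09). Among B cell identity genes 12 of 17 were negative (median -0.05), against 54.7% of all probe sets. At that p 4 were lower, against 2.55% of all probe sets. The list was written with earlier results of these data known, so these shares are no independent test of it. The 4 were Cd79b, the Fc receptor-like gene Fcrl1 at -0.89 (SE 0.13), and, named after their values were seen, Cd72 and the BAFF receptor gene Tnfrsf13c.

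Plasma cell genes had 6 negative and 7 positive members of 13 (median 0.03) and 0 at an unadjusted p under 0.05, against 3.9% of all probe sets. Irf4, a transcription factor of plasma cells and activated T cells, differed by 0.21 (SE 0.17), Edem1 of the endoplasmic reticulum by 0.12 (SE 0.10), and the surface proteoglycan gene Sdc1 by 0.03 (SE 0.12). Class switching and hypermutation genes (11 measured, median -0.03) also had 0 at that p, with the repair nuclease gene Apex1 at 0.22 and Shld1, of a complex that protects DNA ends, at -0.17. The V(D)J recombination genes (14 measured, 8 negative, median -0.04, 0 at that p) held Hmgb1, a DNA-bending cofactor, at 0.18 and the end-joining gene Paxx at -0.19. Rag1, of the recombinase itself, measured 4.36, 4.48 and 4.63 with PBS and 4.70, 4.25 and 4.23 with rapamycin, and Dntt, which adds nucleotides at the joints, 4.21, 4.27 and 4.13 with PBS and 4.26, 4.03 and 4.01 with rapamycin. Both lay below the array medians and their groups overlapped.

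Partners of the TCR (15 measured, 9 negative, median -0.02) had 1 lower and 0 higher member at an unadjusted p under 0.05. Of all probe sets 2.55% were lower and 1.34% higher at that p. The lower partner was Cd5, an inhibitory receptor of T cells, which measured 10.76, 10.85 and 10.87 with PBS and 10.69, 10.67 and 10.54 with rapamycin, a difference of -0.19 (SE 0.08) without overlap. Cd8b1, a CD8 chain, differed by -0.13 (SE 0.08) and Cd3e by -0.03 (SE 0.08). The list of gamma-delta and innate-like T cell genes (11 with a value, 6 negative, median -0.03) had 0 lower and 1 higher at that p, against the same shares of all probe sets. The higher gene was the transcription factor gene Etv5, which measured 6.19, 6.40 and 6.39 with PBS and 6.62, 6.88 and 6.72 with rapamycin, a difference of 0.42 (SE 0.10). Cd27, a co-stimulatory receptor, had -0.20 (SE 0.09). All adjusted p of these genes were above the threshold in limma's test.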

How the data were processed

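Total RNA of sorted T cells was hybridised to Affymetrix whole-transcript arrays, 1 per mouse. The authors deposited log2 values made with RMA in Affymetrix Expression Console, per the submitters' processing notes, and these were used without further normalisation. RMA corrects background, quantile-normalises and summarises probes, and it gives no detection call or depth; the number of 6 arrays limits the precision. All 35556 probe sets were fitted with limma 3.58.1 (lmFit, eBayes) in R 4.3.3 as rapamycin minus PBS, with Benjamini-Hochberg adjustment over all of them and a threshold of 0.05. SE and 95% intervals come from this fit. No fold was taken between probe sets, and a level is set only against the array medians. Segments were taken from the platform's gene table, and no genome build was found for it in the labels or headers.

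The members and gene lists were chosen with earlier results of these data known. Named by rule were the constant-region probe sets with 1 symbol, up to 2 higher and 2 lower members per locus class with the smallest unadjusted p, the widest range per class, the 2 genes of smallest p per related list and 9 set marker genes; others are said to be named after their values were seen. Alternatives were other normalisations, filters, eBayes settings, array weights, 1 row per gene, a block for replicate number and leaving out each mouse. The fit was tested on simulated data with independent normal noise in each probe set. These held no single outlying mice and no identical probe sets, so the test does not bear on such cases among the members.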

Additional observations from a re-analysis of the deposited data

How the results depend on the processing

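The count of members past the adjusted threshold was 0 under all alternatives run. Over all probe sets it was 0 in the reported fit, and 1 both with 1 row per gene and with the probe sets listed in the gene table. Members at an unadjusted p under 0.05, 8 as reported, numbered 1 with 1 row per gene (of 20), 1 among the 25 members with 1 symbol, 5 with median centring, 5 with probe sets above the median level (of 71), and 4 to 16 when leaving out 1 mouse. With median centring this was 6.02% of members against 3.5% of all probe sets, and above the median level 7.04% against 3.96%. With 1 row per gene it was 5% against 4.67%. It was 4.82% against 5.93% without rapamycin replicate 1 and 19.3% against 3.84% without rapamycin replicate 3. Over all probe sets the count at that p, 1385 or 3.9% as reported, was 2237 (6.29%) with array weights and 2110 (5.93%) without rapamycin replicate 1. With probe sets above the median level it was 704 of 17778, a similar share of 3.96%. The median of TCR alpha was -0.40 over members with 1 symbol, and that of the heavy chain constant regions -0.45 with probe sets above the median level. Leaving out 1 mouse, medians ran from -0.48 to -0.12 for heavy chain constant regions and from -1.06 to 0.00040 for mixed heavy chain probe sets. They turned sign in kappa V and J (-0.69 to 0.14), kappa with Igkc (-0.60 to 0.11), TCR alpha (-0.14 to 0.03), TCR beta (-0.32 to 0.26) and TCR gamma (-0.22 to 0.47), by less than the spread between mice. The cause of these changes was not tested, except that fewer probe sets enter with a filter or 1 row per gene. Of 420 values of named members under alternatives, 21 in 10 of 30 members had another sign than reported, and 0 were past the adjusted threshold on either side. With the replicate number as a block, 13 members were at an unadjusted p under 0.05, or 15.7% against 4.11% of all probe sets, and 0 at the adjusted threshold. The numbers are not stated to pair the mice, the correlations of same-numbered arrays' deviations were 0.0613, -0.136 and 0.201, and 2 of 6 arrays correlated best with their own number. With no detection calls, weak signals cannot be told from background.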
